A study of Mus musculus with 9 samples.

Results

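Pitx1, Pax1, Pax9, Barx1, Osr1 and Osr2 are 6 genes for transcription factors that help to lay out the ventral head, the jaws, the palate and the pharynx. They were looked up by symbol in the deposited table, and all 6 were found among its 43548 gene identifiers. All 6 were also among the 18714 genes with a mean level of at least 0.5 over the libraries, the only genes fitted here. The members were chosen by their FPKM in these same libraries, with the levels in all 3 groups known. Their levels and differences are therefore given as a description, with no test.

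The libraries came from E14.5 mouse embryos from a cross of Msx2-Cre with CAGF8, on a strain background labelled mixed. MCAGF8 embryos (Msx2Cre; CAGFgf8) carried both alleles: Cre, driven by Msx2 in the surface ectoderm, removed a stop cassette, and the strong CAG promoter then expressed Fgf8b there. Control embryos are labelled wildtype; the study's methods describe controls as offspring without Cre, and say that every offspring of a homozygous CAGF8 parent inherits the allele, which without Cre keeps its stop cassette. The 3 groups were the cranial vault of MCAGF8 embryos and the cranial vault and cartilaginous cranial base of controls, with 3 libraries each and 9 in all. Every library was made from the RNA of 3 tissue samples, so each group covers 9. The skin, which holds the ectoderm that expresses the transgene, had been peeled off the vaults. Each SD below is a spread between pools, and the spread between embryos cannot be seen. The methods describe taking the vault from control embryos and then, with the brain removed, the base from them as well. The sources used here do not say which base and vault pools share embryos.

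In the embryonic face, FGF8 from the oral and first arch epithelium is known to switch on Pax9, Barx1 and Pitx1 in the mesenchyme beneath it, and BMP4 is known to oppose FGF8 at some of these genes. Pax9, Barx1 and Pitx1 mark jaw and tooth-forming mesenchyme, Barx1 also the mesenchyme of the stomach, and Pitx1 also the hindlimb and the pituitary. Pax1 and Pax9 act together in the sclerotome, which forms the vertebrae, and in the endoderm of the pharyngeal pouches, while Osr1 and Osr2 (odd-skipped related) act in palate, limb and joint mesenchyme.

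The values are FPKM, fragments per kilobase of transcript scaled to the mapped fragments of a library, which allow for gene length. The read depth is unknown, so no counting interval is given. The FPKM of a library summed to between 793249 and 1315981, and 16006 to 17281 genes per library reached at least 1 FPKM. Across genes, Pearson's r between libraries of the same group was 0.970 to 0.974 in the control vault, 0.959 to 0.980 in the MCAGF8 vault and 0.904 to 0.946 in the control base. Fgf8 itself was at 19.5, 9.43 and 13.0 FPKM in the MCAGF8 vault, 13.5, 8.25 and 3.01 in the control vault and 3.78, 17.4 and 5.82 in the control base. Its ranges overlapped in all 3 pairs of groups, in tissue from which the skin had been removed.

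The control base libraries were unlike each other, and this touches every level given for the base. Over 13 cartilage genes, among them Col2a1 and Acan, summed FPKM was 10618 in control base replicate 2 but 1198 and 1664 in replicates 1 and 3. Replicates 1 and 3 lay below all 3 control vault libraries (2110 to 3048) and all 3 MCAGF8 libraries (2887 to 5272), which goes against their label as cartilage. The abundant collagens carry this sum, and not every gene of the list followed it: Snorc, a chondrocyte proteoglycan, read 199, 367 and 150 FPKM in the base, above all control vault (22.5 to 47.5) and MCAGF8 libraries (7.93 to 26.7). Replicate 2 also held inner ear genes, with Oc90, a protein of the otoliths, at 753 FPKM against 5.25 and 4.16. The base is therefore given library by library, and its differences with and without replicate 2.

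Pitx1 (ENSMUSG00000021506), a homeodomain factor of the bicoid class, lies at chr13:55825051-55836192 on the minus strand of GRCm38. It stood at 11.2, 2.24 and 24.6 FPKM in the control base, 3.67, 0.254 and 4.71 in the control vault and 0.116, 0.253 and 0.286 in the MCAGF8 vault. The order of the group means was base, control vault, MCAGF8 vault. Every base library was above every MCAGF8 library, whereas the control vault overlapped both other groups. Its replicate 2 sat at the MCAGF8 level, and base replicate 2 lay below control vault replicates 1 and 3. Group means were 12.7 ± 11.3 (SD, n = 3), 2.88 ± 2.33 and 0.218 ± 0.0902 FPKM. The base mean was 4.41 times the control vault mean and 58.2 times the MCAGF8 mean, and the control vault mean was 13.2 times the MCAGF8 mean. Since these are bulk samples, fewer cells of a type and less RNA per cell cannot be told apart.

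Barx1 (ENSMUSG00000021381), a BarH-like homeodomain factor, lies at chr13:48662998-48666507 on the plus strand. Its FPKM was 132, 15.9 and 155 in the control base, 12.7, 1.15 and 15.0 in the control vault and 1.40, 7.24 and 1.02 in the MCAGF8 vault. The base was above both vaults without overlap, though its lowest library, replicate 2, stood next to the highest control vault library. The vaults overlapped, since control vault replicate 2 was as low as MCAGF8 replicates 1 and 3 and MCAGF8 replicate 2 was above it. Mean levels were 101 ± 74.8 FPKM in the base, 9.61 ± 7.41 in the control vault and 3.22 ± 3.48 in the MCAGF8 vault (SD, n = 3). That is 10.5 times the control vault and 31.4 times the MCAGF8 vault, and the control vault mean was 2.98 times the MCAGF8 mean.

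Pax9 (ENSMUSG00000001497), a paired-domain factor, lies at chr12:56691767-56712822 on the plus strand. It measured 17.9, 6.47 and 24.1 FPKM in the control base, 3.74, 0.456 and 1.36 in the control vault and 0.699, 0.976 and 0.411 in the MCAGF8 vault. Base libraries were all above the vault libraries, and the ranges of the vault groups overlapped. Its means were 16.1 ± 8.92, 1.85 ± 1.69 and 0.696 ± 0.282 FPKM (SD, n = 3). The base mean was 8.72 times that of the control vault and 23.2 times that of the MCAGF8 vault.

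Pax1 (ENSMUSG00000037034), the closest relative of Pax9, lies at chr2:147361925-147393295 on the plus strand. Unlike Pax9, it was not ordered by tissue: it read 19.0, 8.73 and 9.40 FPKM in the control base and 11.1, 13.9 and 11.9 in the control vault. In the MCAGF8 vault it read 17.9, 32.1 and 21.5, above all control vault libraries but overlapping base replicate 1. The means were 23.9 ± 7.37 FPKM in the MCAGF8 vault, 12.4 ± 5.74 in the base and 12.3 ± 1.44 in the control vault (SD, n = 3), and the last 2 differed by less than their spread. The MCAGF8 mean was 1.94 times the control vault mean and 1.93 times the base mean.

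Osr1 (ENSMUSG00000048387), a zinc finger factor, lies at chr12:9570116-9581500 on the plus strand. Its level was 90.4, 120 and 63.6 FPKM in the MCAGF8 vault, 43.5, 56.8 and 53.0 in the control vault and 44.0, 22.4 and 55.9 in the control base. All MCAGF8 libraries were above all control libraries, and the control tissues overlapped. Means were 91.5 ± 28.4, 51.1 ± 6.84 and 40.8 ± 17 FPKM (SD, n = 3), so the MCAGF8 vault stood at 1.79 times the control vault and 2.24 times the base.

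Osr2 (ENSMUSG00000022330), the paralogue of Osr1 needed for palate growth, lies at chr15:35296098-35303305 on the plus strand. It was at 43.3, 37.0 and 39.3 FPKM in the MCAGF8 vault and 37.0, 38.2 and 40.0 in the control vault, which overlapped. The base libraries read 35.0, 5.38 and 41.5. Only base replicate 2 stood apart, and the base mean of 27.3 ± 19.3 FPKM (SD, n = 3) rests on it; the vault means were 39.8 ± 3.20 and 38.4 ± 1.49.

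**Figure D1:**
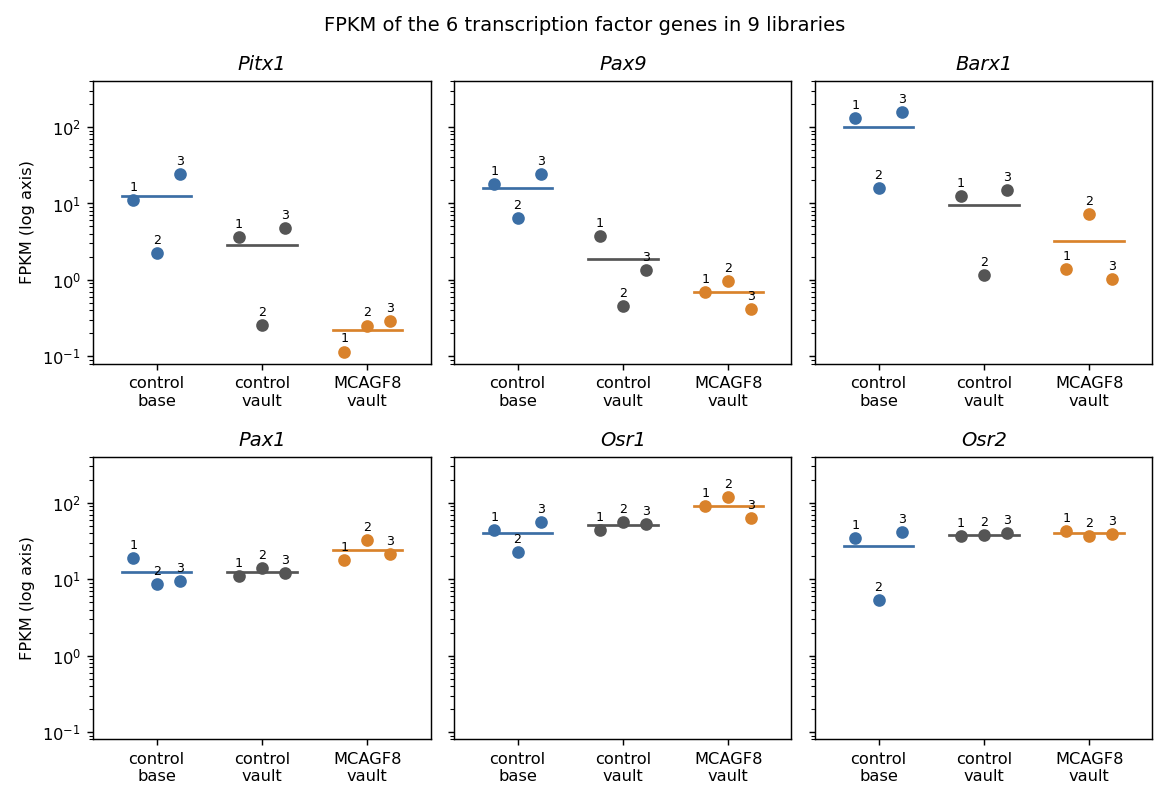
FPKM of each of the 6 genes (vertical log axis) in the control base, control vault and MCAGF8 vault; points are libraries, labelled by replicate number, and lines are group means. Pitx1, Pax9 and Barx1 are highest in the control base and are low in replicate 2 of both control tissues, while Osr1 is highest in the 3 MCAGF8 libraries (63.6 to 120 FPKM).

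Groups did not overlap for 2 of the 6 genes, Pax9 and Barx1, both higher in the control base than in the control vault, where 8.86% of all genes tested were higher without overlap. In the MCAGF8 vault against the base, Pitx1, Pax9 and Barx1 were lower without overlap (13% of all genes tested) and Osr1 was higher (8.91%). Against the control vault, Pax1 and Osr1 were higher in the MCAGF8 vault without overlap (9.9%). These counts describe the values that the set was built on, and nothing is read from them.

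On the log2(FPKM + 1) scale, which understates the change of low genes, the control base minus the control vault was 1.64 (SE 0.74) for Pitx1, 2.59 (SE 0.51) for Pax9 and 3.18 (SE 1.00) for Barx1. It was -0.06 (SE 0.31) for Pax1, -0.40 (SE 0.34) for Osr1 and -0.88 (SE 0.58) for Osr2. So the jaw and tooth genes stood higher in the base while Pax1 and the Osr genes stood level or lower. The MCAGF8 vault minus the control vault was -1.41 for Pitx1, -0.59 for Pax9 and -1.19 for Barx1, and 0.87 for Pax1, 0.79 for Osr1 and 0.05 for Osr2, with the same SE for each gene. That SE pools the spread of all 3 groups, so between the vaults it also carries the spread of the base. For Osr2, base replicate 2 read 5.38 FPKM, while the vault libraries read 37.0 to 43.3. The MCAGF8 vault minus the base was -3.05 for Pitx1, -3.18 for Pax9 and -4.37 for Barx1, and 0.93 for Pax1, 1.19 for Osr1 and 0.93 for Osr2. The 3 comparisons share libraries, so their values are not separate evidence. The median over the 6 genes was 0.79 for base minus control vault, -1.06 for MCAGF8 minus base and -0.27 for MCAGF8 minus control vault, beside 0.07, -0.07 and -0.01 over all genes tested.

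**Figure D2:**
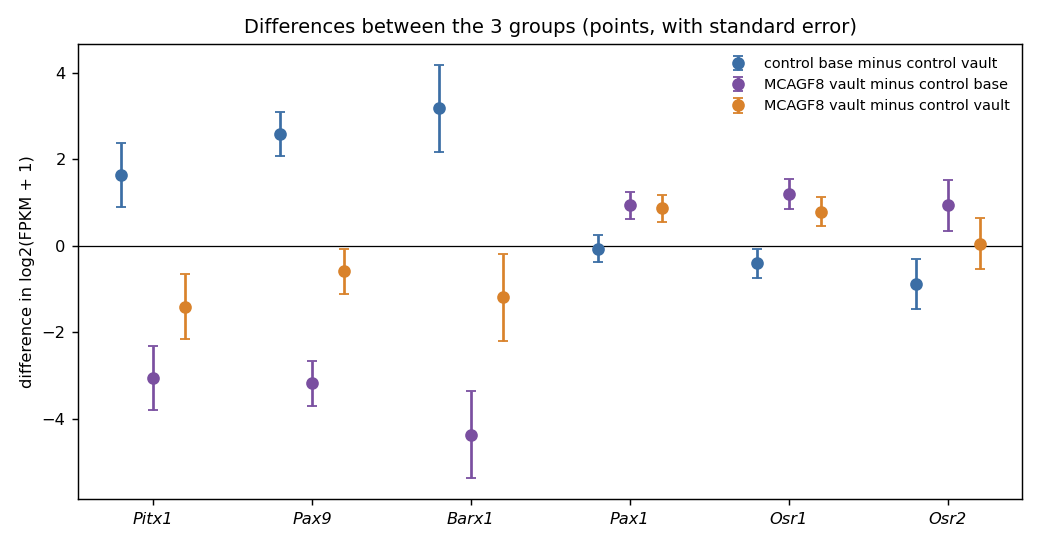
Differences between groups in log2(FPKM + 1) (vertical axis) for each of the 6 genes; points are fitted differences and bars are their standard errors. Pitx1, Pax9 and Barx1 lie above 0 for control base minus control vault and below 0 for MCAGF8 vault minus base, Pax1 and Osr1 lie above 0 in both MCAGF8 differences, and Osr2 in the vaults is near 0 (0.05).

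Single libraries set much of these differences. Without base replicate 2, the base minus control vault difference on the log2(FPKM + 1) scale was 2.46 for Pitx1, 3.10 for Pax9 and 4.21 for Barx1, and -0.01 for Osr2. With replicate 2 as the only base library, an alternative chosen after seeing the data, it was 0.01 for Pitx1, 1.56 for Pax9, 1.12 for Barx1, -1.15 for Osr1 and -2.63 for Osr2. The library richest in cartilage genes thus had a Pitx1 level near the control vault mean on this scale. For the vaults, MCAGF8 minus control vault without control vault replicate 2 was -2.09 for Pitx1, -0.99 for Pax9 and -2.11 for Barx1. With that library as the only control vault, also chosen after seeing the data, it was -0.04, 0.21 and 0.67, while Pax1 stayed at 0.70 and Osr1 at 0.63.

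Pitx1, Pax9 and Barx1 were low together in replicate 2 of both control tissues. In the control vault, the highest library was 18.6 times the lowest for Pitx1 and 13.0 times for Barx1, but 1.25 times for Pax1. In control vault replicate 2, all 9 osteoblast genes and 6 of 8 neuronal genes tested were at their lowest of the 3 control vault libraries, while all 10 skeletal muscle genes and 9 of 13 cartilage genes were at their highest. Of 10 epithelial genes, 4 were lowest and 4 highest there: the simple epithelial keratins Krt8 and Krt18 read 2.77 and 2.93 FPKM against 7.95 and 12.3 in replicate 1 and 10.2 and 16.6 in replicate 3, and the epidermal keratins Krt5 and Krt14 read 29.2 and 22.1 against 5.27 and 5.40 and 1.63 and 0.798. The part of other cells in these levels was not tested.

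Marker lists were therefore read beside the 6 genes. Over 10 epithelial genes the summed FPKM was 576, 158 and 836 in the base, 73.3, 93.2 and 57.5 in the control vault and 400, 377 and 608 in the MCAGF8 vault. All 10 tested epithelial genes had a higher mean in the base than in the control vault and 2 of them passed the test given below. In the base this sum was low in replicate 2, as Pitx1, Pax9 and Barx1 were. In the MCAGF8 vault it was above every control vault library, but its genes did not move as one: Krt5 and Krt14 averaged 180 and 142 FPKM there and 12.0 and 9.45 in the control vault, while Krt8 and Krt18 averaged 2.31 and 2.72 there and 6.96 and 10.6 in the control vault. The part of epithelial cells in the levels of Pitx1, Pax9 and Barx1 was not tested. Of 7 pharyngeal endoderm genes, Foxe1 read 6.77, 0.224 and 7.55 FPKM and Foxa1 10.03, 0.328 and 12.8 in base replicates 1, 2 and 3, and both stood at no more than 1.25 in any vault library. Hhex was also lowest in base replicate 2 (7.32, 3.74 and 5.70), but Foxa2 was highest there (2.32, 5.39 and 2.47). By the test given below, Foxa2 was the 1 gene of the 4 tested called in the base against the control vault (higher, limma adjusted p = 0.0264). The list's summed FPKM was 9.78 to 28.8 in the base, 6.65 to 8.11 in the control vault and 8.52 to 14.51 in the MCAGF8 vault, most of it Hhex in the vaults, and the thymus, parathyroid and thyroid regulators Foxn1, Gcm2 and Nkx2-1 were at no more than 0.523 in any library.

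Of 10 pituitary genes, whose tissue expresses Pitx1, the regulators Hesx1, Pou1f1, Six6 and Lhx4 were at no more than 0.201 FPKM in all libraries. The list's summed FPKM was 14.7 to 22.6 in the base, 9.94 to 11.5 in the control vault and 4.74 to 7.01 in the MCAGF8 vault. Pomc read 4.2, 5.9 and 3.1 in the base and 1.83 to 2.57 in the vaults. By the test given below it was lower in the MCAGF8 vault than in the base (limma adjusted p = 0.0648). Lhx3 read 1.47 in base replicate 2 and Cga 3.20 in base replicate 1. The part of pituitary cells in the level of Pitx1 was not tested. Neuronal genes, 8 of them, summed to 283 to 976 in the base, 32.1 to 86.4 in the control vault and 44.9 to 81.1 in the MCAGF8 vault. Skeletal muscle genes, 10 in all, summed to 1619 to 11133 in the base, 846 to 5519 in the control vault and 20.3 to 172 in the MCAGF8 vault. The 4 inner ear genes summed to 809 in base replicate 2 and to at most 6.58 elsewhere, and 9 osteoblast genes to 490 to 1376 in the base, 1370 to 3357 in the control vault and 140 to 288 in the MCAGF8 vault. Muscle and osteoblast sums were thus lower in every MCAGF8 library than in every control vault library, and their part in the levels of Pitx1, Pax9 and Barx1 was not tested.

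**Figure D3:**
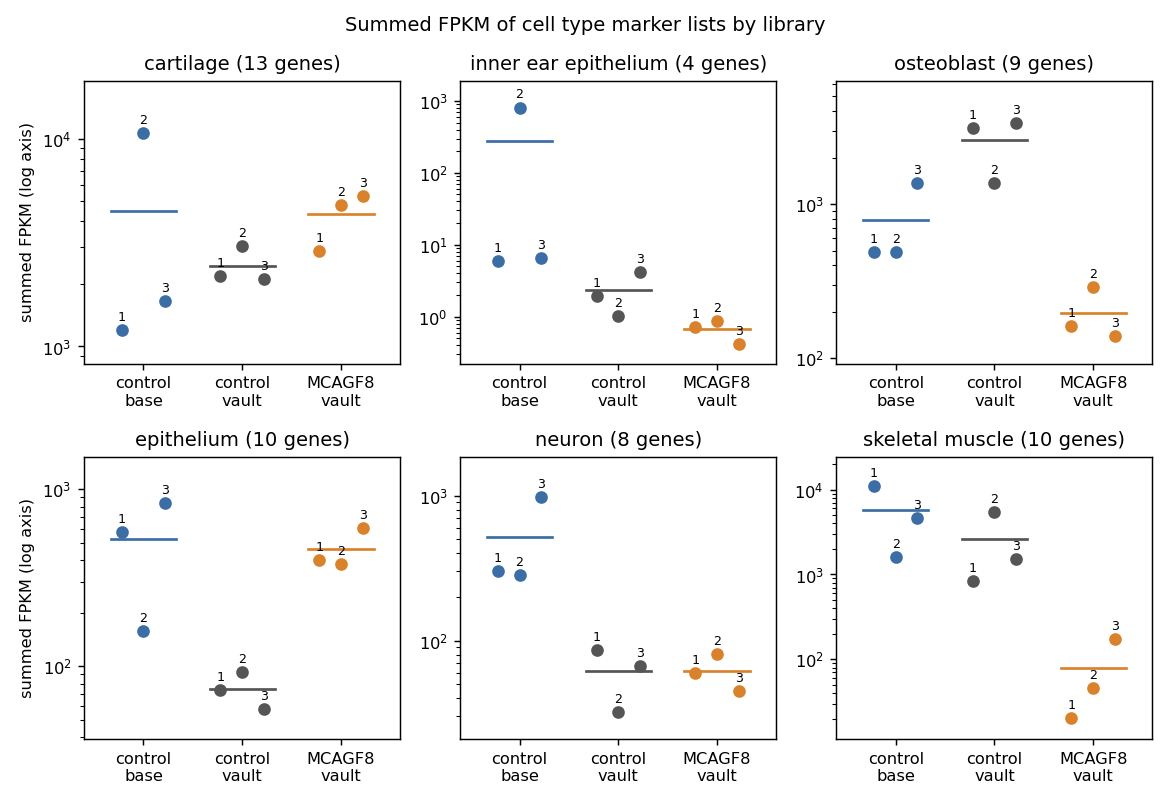
Summed FPKM (vertical log axes) of 6 marker lists in the 9 libraries; points are libraries, labelled by replicate number, and lines are group means. Control base replicate 2 is the highest library for cartilage (10618) and inner ear genes (809) and the lowest base library for epithelial genes (158).

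Sequence upstream of the genes could be read for 3 of the 6 members: Pax1, Pax9 and Barx1 had an entry in the RefSeq promoter table (GRCm38.p6), and Pitx1, Osr1 and Osr2 had none. The 250 bases before each RefSeq start are shown because Pax1 and Pax9 are relatives with unlike patterns and Pax9 and Barx1 had like ones. Capitals mark matches, on either strand, to the TATA box TATAAA, the CCAAT box, the GC box GGGCGG, the bicoid-type homeodomain core TAATCC, the ETS core CCGGAA and the core TGACG of the cAMP response element (CRE). The Pax1 and Pax9 windows, at chr2:147364744-147364993 and chr12:56695221-56695470 (plus strand), lie inside the longer gene models of GENCODE. For Barx1 the first 212 bases are printed, chr13:48662786-48662997 (plus strand), up to its GENCODE start.
Pax1: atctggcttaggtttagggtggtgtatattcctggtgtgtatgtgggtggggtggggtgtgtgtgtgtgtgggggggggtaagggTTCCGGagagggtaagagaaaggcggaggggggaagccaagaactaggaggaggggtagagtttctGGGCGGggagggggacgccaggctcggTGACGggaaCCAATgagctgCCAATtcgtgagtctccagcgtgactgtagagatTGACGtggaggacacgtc
Pax9: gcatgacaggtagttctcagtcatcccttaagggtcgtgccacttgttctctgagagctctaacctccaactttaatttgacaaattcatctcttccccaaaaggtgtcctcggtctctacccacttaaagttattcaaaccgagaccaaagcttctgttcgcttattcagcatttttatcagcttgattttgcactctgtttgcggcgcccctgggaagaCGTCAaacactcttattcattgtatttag
Barx1: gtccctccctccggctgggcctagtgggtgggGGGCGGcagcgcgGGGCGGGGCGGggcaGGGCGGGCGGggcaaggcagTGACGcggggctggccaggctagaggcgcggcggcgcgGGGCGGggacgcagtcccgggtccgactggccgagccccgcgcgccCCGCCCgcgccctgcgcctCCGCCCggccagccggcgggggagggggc

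The windows of Pax9 and Barx1 were unlike in base content, although their levels were ordered alike. The Barx1 window was 85.6% G and C, more than 99.9% of 32851 promoters of the same length, and held 40 CpG; the Pax9 window was 43.6% G and C, above 20.1% of promoters, with 7 CpG. Pax1 was between them, with 58.8% and 10, and the median promoter had 52.4% and 6. Barx1 held the GC box 8 times, of which 2 pairs of matches overlap, and Pax1 once, while 32.7% of promoters hold it. Pax1 also held the CCAAT box at -63 and -52 from its start (33.8% of promoters) and the ETS core at -165 (12.0%). TGACG was in all 3 windows and in 17.8% of promoters. The TATA box (12.4%) and the homeodomain core (6.3%), which is the type of site that Pitx1 binds, matched none of the 3 windows. A match describes letters and is not evidence of binding.

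The pattern of each gene over the 9 libraries was compared with all other tested genes, as the root mean square difference of log2(FPKM + 1) after each gene's own mean was taken off. Among the members, Pitx1 and Pax9 were closest to each other of the base-high genes (0.652), with Barx1 at 0.913 from Pitx1 and 0.929 from Pax9. Pax1 and Osr1 were 0.409 apart and Osr1 and Osr2 0.57, against 1.82 between the relatives Pax1 and Pax9. The genes nearest to Pitx1 were Cbr2, a carbonyl reductase (0.412), Krt8 (0.468) and Tekt1, a protein of ciliary microtubules (0.512). Those nearest to Pax9 were Dlx2, a homeodomain factor of the branchial arches (0.318), Chgb (0.354) and Cldn7 (0.387), and to Barx1 Krt8 (0.731), Dynlrb2 (0.761) and Sim2 (0.791). Nearest to Pax1 were Hk1os (0.18), Gas1 (0.257) and Wnt6 (0.265), to Osr1 Pgm5 (0.116), Basp1 (0.188) and Fam181b (0.192), and to Osr2 the Wnt pathway genes Rspo1 (0.314) and Sfrp2 (0.324) and the gene Ifitm3 (0.332). All patterns are measured over the same 9 libraries, and likeness says nothing of shared control.

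Coding genes next to the members on the chromosome were read for comparison. H2afy, 237.4 kb from Pitx1, averaged 198 ± 33.9 FPKM in the base, 185 ± 5.45 in the control vault and 192 ± 8.04 in the MCAGF8 vault (SD, n = 3). Ptpdc1 and Phf2, which flank Barx1 at 37.3 and 135.2 kb, averaged 13.9 and 35.1 in the base, 18.1 and 38.0 in the control vault and 21.4 and 43.5 in the MCAGF8 vault, so neither was highest in the base as Barx1 was. Nkx2-9, next to Pax9, was listed at 0 in every library. Pax1 overlaps AI646519 on the opposite strand, which read 14.7, 3.26 and 5.44 FPKM in the base, 4.28, 6.73 and 3.81 in the control vault and 1.70, 4.05 and 6.21 in the MCAGF8 vault. Pax9 overlaps Gm15524 and the coding gene Slc25a21, both on the opposite strand. Gm15524 read 1.2, 1.5 and 3.5 in the base and at most 0.2235 in any vault library. Slc25a21 read 1.28, 0.373 and 0.697 in the base and at most 0.542 in any vault library. The kit was stranded, but the sources used here do not say whether counting used the strand, so reads of these overlapping genes cannot be told apart.

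To place the 6 genes among their partners, 75 other genes in 6 lists were tested: relatives in the same gene families, arch and palate genes, sclerotome genes, joint genes, signals known to act upstream, and genes known to act downstream or alongside. Of these, 72 had a row and 63 had a level high enough to be fitted. The test was limma on log2(FPKM + 1) over all 9 libraries, two-sided. It pools the spread of each gene over the groups, so calls between the vaults also depend on the spread of the base. P-values measure the spread between pools. Genes were called where the unadjusted p was under 0.05 and the p adjusted by Benjamini-Hochberg over all 18714 genes was under 0.1. In the base against the control vault, 9 of the 63 genes were higher and 0 lower, while 3.06% of all genes tested were called in either direction. At an unadjusted p under 0.05 (12.8% of all genes), 19 were higher and 4 lower. Without moderation of the variances, 6 of the 63 were called, beside 257 of all genes tested. After rescaling each library to the same sum, 9 genes were again called, 7 higher and 2 lower, beside 456 of all genes. After quantile normalization 8 were higher and 1 lower, beside 626 of all genes. These are not the same 9, since Gdf5 lost its call under both (limma adjusted p 0.173 and 0.133). Etv4 lost its call under the first (limma adjusted p 0.13), and each of these genes was still higher in the base. The MCAGF8 vault against the base had 5 higher and 13 lower (8.39% of all genes called). It had 8 higher and 12 lower after rescaling to the same sum (1605 of all genes called) or 7 and 11 after quantile normalization (1963). An unadjusted p under 0.05 was reached by 9 higher and 21 lower genes there, and by 19.6% of all genes. The MCAGF8 vault against the control vault had 1 gene called, which was higher (0.604% of all genes called), and 9 higher and 10 lower at an unadjusted p under 0.05 (6.34% of all genes). Without moderation, 0 of all genes tested were called between the vaults, so that fit cannot tell any list from the rest.

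The arch and palate genes held 4 of the 9 that were higher in the base. Tbx1, the T-box factor of the pharyngeal apparatus, was at 21.9, 19.7 and 16.3 FPKM in the base and at 1.78, 0.643 and 1.40 in the control vault, a difference of 3.18 on the log2(FPKM + 1) scale (SE 0.26, limma adjusted p = 0.00107). Tbx1 was as high in base replicate 2 as in the others, unlike Pitx1, Pax9 and Barx1. Isl1, a LIM homeodomain factor of the early mandible, averaged 40.8 ± 24.0 FPKM against 1.00 ± 0.972 (SD, n = 3, difference 4.31, SE 0.51, limma adjusted p = 0.00613). Isl1 read 17.9, 38.8 and 65.7 in base replicates 1, 2 and 3, where the 8 neuronal genes summed to 301, 283 and 976. The part of neurons in the level of Isl1 was not tested. Foxf2, a forkhead factor of oral and palatal mesenchyme, averaged 38.1 ± 15.6 against 2.04 ± 0.516 (difference 3.61, SE 0.40, limma adjusted p = 0.00431). Hand2, a distal arch factor, stood at 8.52 ± 7.65 against 0.0476 ± 0.0438 (difference 2.79, SE 0.59, limma adjusted p = 0.0547), and lost its call when any 1 control vault library, base replicate 3 or MCAGF8 replicate 1 was left out (adjusted p 0.104 to 0.191). Tbx1, Isl1 and Foxf2 kept theirs with any 1 library left out.

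Against the same base libraries, Tbx1, Isl1, Foxf2 and Hand2 were lower in the MCAGF8 vault: the differences were -2.51, -4.47, -3.72 and -2.11 (limma adjusted p 0.00206, 0.00347, 0.00251 and 0.0773). Lhx8, a LIM homeodomain factor of palate and tooth mesenchyme, was lower as well (-2.44, SE 0.60, limma adjusted p = 0.0481), and Edn1, the arch ligand endothelin 1, was higher (0.92, SE 0.22, limma adjusted p = 0.0473). Hand2 kept its call in only 1 of the 9 fits that left out a library (adjusted p 0.114 to 0.265 in the rest). Lhx8 lost its call without base replicate 1 or any 1 MCAGF8 library (adjusted p 0.125 to 0.157), and Edn1 without base replicate 3 or MCAGF8 replicates 1 or 2 (0.102 to 0.171). Between the vaults, none of the 25 arch and palate genes was called by limma, and 2 were higher and 3 lower at an unadjusted p under 0.05. The 2 higher were Edn1 (1.02, SE 0.22, limma adjusted p = 0.138) and Tbx1 (0.68, SE 0.26, limma adjusted p = 0.612). Edn1 read 4.54, 5.31 and 3.67 FPKM in the MCAGF8 vault and 1.72, 1.69 and 1.69 in the control vault. MCAGF8 minus control vault was -2.09 (SE 0.49, limma adjusted p = 0.177) for Dlx6 and -1.08 (SE 0.28, limma adjusted p = 0.254) for Dlx5, homeodomain factors of the ventral arch.

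**Figure D4:**
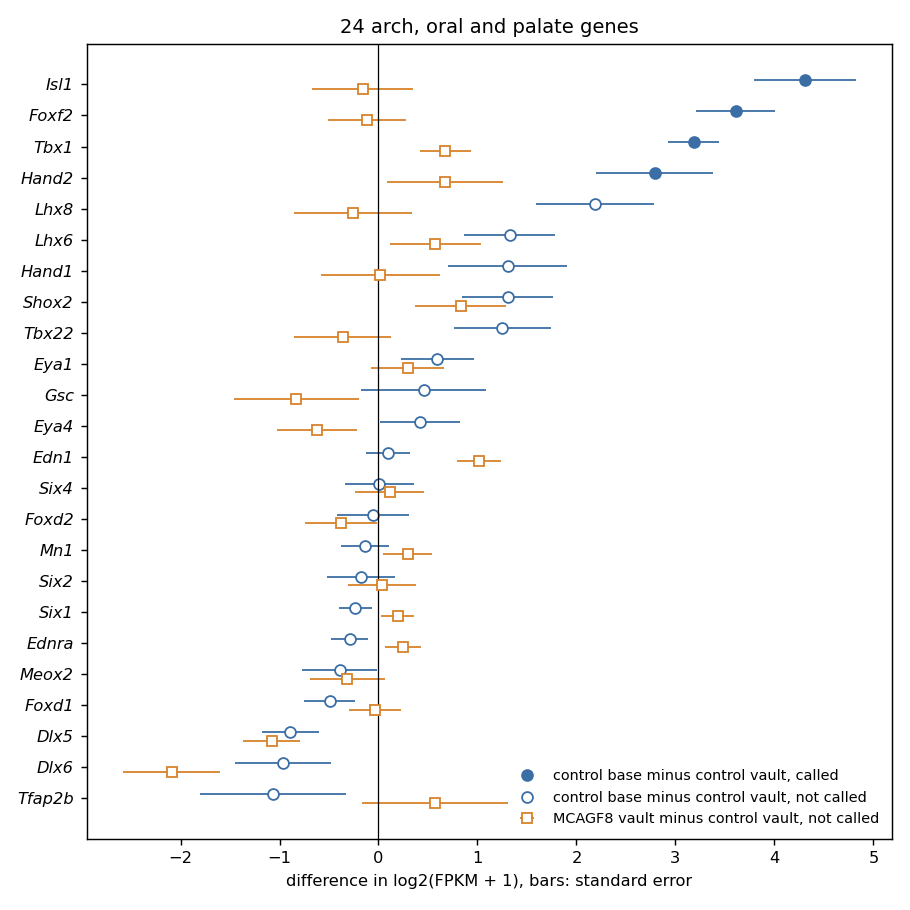
Differences in log2(FPKM + 1) (horizontal axis) for 24 of the 25 arch, oral and palate genes tested; circles are control base minus control vault, filled where called, squares are MCAGF8 vault minus control vault, and bars are standard errors. Isl1, Foxf2, Tbx1 and Hand2 are the 4 called genes, at 2.79 to 4.31, and no square is a called gene.

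Family relatives of the members were not called in any comparison: of 10 listed, 7 were tested and 0 called by limma or without moderation. At an unadjusted p under 0.05, 1 was higher in the base than in the control vault, 4 were lower in the MCAGF8 vault than in the base, and 1 was lower in it than in the control vault. Barx2, the relative of Barx1, read 10.3, 1.64 and 7.65 FPKM in the base, 2.68, 1.47 and 2.33 in the control vault and 0.521, 1.13 and 2.05 in the MCAGF8 vault, and it was lowest in base replicate 2 like Barx1. Pitx3, a factor of lens and muscle, read 23.3, 3.20 and 13.6 in the base, 3.33, 16.6 and 7.33 in the control vault and 0.25, 2.67 and 3.04 in the MCAGF8 vault. MCAGF8 minus base was -1.57 (SE 0.51, limma adjusted p = 0.121) for Barx2 and -2.11 (SE 0.73, limma adjusted p = 0.147) for Pitx3.

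Of 7 sclerotome genes, partners of Pax1 and Pax9, 5 were tested. Nkx3-2, which Pax1 and Pax9 are known to activate, was at 6.42, 9.14 and 4.29 FPKM in the base, 0.926, 1.85 and 1.04 in the control vault and 1.35, 3.00 and 2.08 in the MCAGF8 vault. It was higher in the base than in the control vault (1.72, SE 0.31, limma adjusted p = 0.0342) and lower in the MCAGF8 vault than in the base (-1.26, SE 0.31, limma adjusted p = 0.0524). Its highest library was base replicate 2, where Pax9 was lowest among the base libraries. Meox1 averaged 6.02 ± 3.41 in the MCAGF8 vault and 18.8 ± 6.86 in the base (SD, n = 3; -1.53, SE 0.38, limma adjusted p = 0.0504). Nkx3-2 lost the first call without control vault replicates 1 or 3 (adjusted p 0.139 and 0.155) and the second without base replicate 1 or MCAGF8 replicates 1 or 3 (0.109 to 0.214). Meox1 lost its call without base replicates 1 or 3 or MCAGF8 replicates 1 or 3 (0.14 to 0.202). Between the vaults, 0 of the 5 were called by limma and 2 were lower at an unadjusted p under 0.05.

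Joint genes, listed for the role of the Osr genes in joints, were called for 2 of 7 in the base against the control vault, both higher. Gdf5, a ligand of the joint interzone, averaged 7.92 ± 4.50 FPKM against 1.87 ± 0.245 (SD, n = 3; 1.52, SE 0.34, limma adjusted p = 0.0672). Wnt4 averaged 6.60 ± 2.14 against 2.15 ± 0.435 (1.24, SE 0.25, limma adjusted p = 0.0485). Wnt4 was also the gene called between the vaults: it read 8.66, 10.2 and 9.57 FPKM in the MCAGF8 vault and 2.19, 2.55 and 1.69 in the control vault, without overlap (1.74, SE 0.25, limma adjusted p = 0.0374). Like Osr1, it was higher in every MCAGF8 library than in every control library of the vault. In the MCAGF8 vault against the base, Gdf5 (-1.65, limma adjusted p = 0.0257) and Prg4, the lubricin gene (-1.54, limma adjusted p = 0.0359), were lower and Erg, a factor of articular cartilage (0.90, limma adjusted p = 0.0327), was higher. Single libraries decided several of these calls. Wnt4 between the vaults was lost without any 1 MCAGF8 library or control vault replicates 1 or 3 (adjusted p 0.131 to 0.201), and in the base without any 1 control vault library or MCAGF8 replicate 1 (0.104 to 0.2). Gdf5 in the base was lost without base replicate 3, MCAGF8 replicates 1 or 3 or any 1 control vault library (0.118 to 0.212) and against the MCAGF8 vault without MCAGF8 replicate 1 (0.123). Prg4 was lost without MCAGF8 replicates 2 or 3 (0.12) and Erg without any 1 MCAGF8 library (0.102 to 0.127).

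Upstream signals were 15 genes, all tested. Shh, the ligand of pharyngeal and oral epithelium, stood at 3.37, 1.90 and 4.25 FPKM in the base and at no more than 0.258 in any vault library. It was higher in the base than in the control vault (1.92, SE 0.25, limma adjusted p = 0.0105) and lower in the MCAGF8 vault than in the base (-1.83, limma adjusted p = 0.00658). Etv4, a transcription factor induced by FGF signaling, averaged 22.4 ± 4.92 in the base, 8.38 ± 1.97 in the control vault and 17.9 ± 2.00 in the MCAGF8 vault (SD, n = 3). It was higher in the base than in the control vault (1.32, SE 0.23, limma adjusted p = 0.0303; lost without control vault replicates 2 or 3, adjusted p 0.111 and 0.147), and MCAGF8 minus control vault was 1.03 (SE 0.23, limma adjusted p = 0.163). In the MCAGF8 vault against the base the hedgehog ligand Ihh (-2.62, limma adjusted p = 0.00662) and the pathway's readouts Ptch1 (-1.70, limma adjusted p = 0.0113) and Gli1 (-1.40, limma adjusted p = 0.0163) were lower. Bmp4, whose protein opposes FGF8 in the jaw, was higher there: it read 85.4, 89.1 and 66.5 FPKM in the MCAGF8 vault and 40.8, 41.0 and 41.5 in the base (0.94, SE 0.17, limma adjusted p = 0.014). Shh, Ihh, Ptch1, Gli1 and Bmp4 kept these calls with any 1 library left out, while Gli1 lost its call after rescaling to the same sum (-1.19, adjusted p 0.121). In the control vault Bmp4 read 51.3, 58.8 and 49.0, all below the MCAGF8 vault (0.58, SE 0.17, limma adjusted p = 0.32). Between the vaults, 0 of the 15 were called by limma, and 4 were higher and 4 lower at an unadjusted p under 0.05.

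Of 8 genes known to act downstream of the members or alongside them, 6 were tested. Tbx4, a target of Pitx1 in the hindlimb, was at 3.44, 4.14 and 3.68 FPKM in the MCAGF8 vault, 1.63, 1.46 and 1.92 in the control vault and 0.897, 1.31 and 1.44 in the base, the reverse of the order of Pitx1. It was higher in the MCAGF8 vault than in the base (1.11, SE 0.21, limma adjusted p = 0.017), also with any 1 library left out. Hoxc10 and Hoxc11, hindlimb genes as well, were listed at 0 in all libraries. Msx1, which acts with Pax9 in tooth mesenchyme, read 150, 153 and 75.9 in the MCAGF8 vault, 78.9, 79.3 and 91.9 in the control vault and 8.13, 11.7 and 66.7 in the base. MCAGF8 minus base was 2.61 for Msx1 (SE 0.63, limma adjusted p = 0.0476), a call lost without base replicate 1 or MCAGF8 replicates 1 or 2 (0.13 to 0.184). Sfrp1 and Sfrp2, Wnt antagonists that Barx1 is known to induce in the stomach, were not ordered like Barx1: Sfrp2 averaged 909 ± 80.5 in the control vault, 719 ± 68.8 in the MCAGF8 vault and 427 ± 244 in the base, and Sfrp1 105 ± 2.54, 91.3 ± 7.90 and 105 ± 16.9 (SD, n = 3). Neither was called in a comparison. Between the vaults, 0 of the 6 were called by limma and 2 were higher at an unadjusted p under 0.05.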

How the data were processed

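For 9 pools (3 groups of 3), stranded mRNA libraries were sequenced by the authors as single-end reads, mapped with gSNAP and quantified with Cufflinks; the authors deposited FPKM per Ensembl gene. Genome build, annotation release and versions: not given in the sources used here. Repeated rows (63) were summed, 9 genes with 17 placeholder cells (999999999) were left out from 43548 identifiers. The 18714 genes whose mean FPKM reached 0.5 were fitted as log2(FPKM + 1) with limma 3.58.1 in R 4.3.3 (eBayes with trend, 1 mean per group, all libraries taken as independent). The fit does not allow for control embryos that gave both a base and a vault sample. The authors used ANOVA in R. The fit was tested on simulated data. Tables were handled with Python 3.11.15 and pandas 2.3.3. Depth is unknown, and the number of pools limits the precision. Members and lists were chosen with earlier results of these data known. Text names the members, every called list gene, otherwise up to 5 genes per list and comparison with the widest difference at a mean of at least 1 FPKM, defining markers, the 3 genes most like each member and nearest coding neighbours; Krt5, Krt14, Krt18 and Snorc were singled out among the markers after their values were seen. Some genes that the rule names are not reported here. Coordinates and neighbours come from GENCODE (GRCm38), matched by Ensembl identifier. Alternatives covered pseudocount, filter, scaling, libraries and model.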

Additional observations from a re-analysis of the deposited data

How the results depend on the processing

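The number of list genes called in the base against the control vault was 9 of 63 fitted, beside 573 of all genes. It was 5 of 47 fitted with a mean FPKM of at least 5 (291 of all genes called). With only the 6 libraries compared it was 4 (108 of all genes). With 1 library left out it was 4 to 17: 17 without base replicate 2 (1322), 4 without control vault replicate 3 (132) and 5 without control vault replicate 1 (190). For the MCAGF8 vault against the base it was 18, beside 1571 of all genes. A mean FPKM of at least 5 gave 11 of 47 fitted (834 of all genes), and only the 6 libraries compared gave 11 (875). With 1 library left out it was 10 to 30: 30 without base replicate 2 (4580) and 10 without MCAGF8 replicate 1 (559). For the MCAGF8 vault against the control vault it was 1, beside 113 of all genes. It was 2 with a pseudocount of 0.1 (191 of all genes) or 0.01 (192), quantile normalization (110) or no variance trend (113). It was 3 with 6 libraries (174) and 0 without moderation (0). With 1 library left out it was 0 to 3: 3 without base replicate 2 (231) or control vault replicate 2 (111). It was 0 without any 1 MCAGF8 library (13 or 14) or control vault replicates 1 or 3 (11). The settings that leave out 2 libraries were chosen after seeing the data and assume that the lone library varies like the others. The median over the 6 members was -0.22 for the base against the control vault (0.79) without base replicates 1 and 3, and 0.49 to 1.29 with 1 library left out. For MCAGF8 against the base (-1.06) it was -0.05 without base replicates 1 and 3, and -1.82 (without base replicate 2) to -0.79. For MCAGF8 against the control vault (-0.27) it was 0.42 without control vault replicates 1 and 3, and -0.47 to -0.06. Rescaling to the same sum moved the median of all genes to 0.13 for MCAGF8 against the control vault and 0.11 against the base, and the members' medians to -0.16 and -0.90. Deviations from the group means correlated at -0.549 to 0.370 for same-numbered libraries and at -0.482 to 0.563 for others. With 3 libraries per group this cannot decide whether the numbers pair the libraries. With the replicate block the 3 counts were 6, 16 and 0, beside 234, 918 and 19 of all genes. The cause of these changes was not tested. Unknown depth limits the low values, among them Pitx1 in the MCAGF8 vault, and 3 pools per group limit every error.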

Other observations

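Blood and macrophage genes were also read in the 9 libraries. The 6 erythroid genes summed to 605 to 1703 FPKM in the base, 1432 to 2354 in the control vault and 1709 to 3646 in the MCAGF8 vault. Of them, 1 was lower in the base than in the control vault and 2 were higher in the MCAGF8 vault than in the base by the limma test used above. The 6 macrophage genes summed to 104 to 247 in the base, 221 to 294 in the control vault and 218 to 366 in the MCAGF8 vault, with 2 lower in the base than in the control vault and 3 higher in the MCAGF8 vault than in the base. Between the vaults, 0 genes of either list were called by limma or had an unadjusted p under 0.05. The remaining neighbours of the members, Catsper3, Nkx2-2, Foxa2, Prps1l3, Ttc32, Nt5c1b, Stk3 and Vps13b, had group means from 0 to 39.9 FPKM. Foxa2, 649.6 kb from Pax1 and a factor of endoderm and notochord, averaged 3.39 ± 1.73 FPKM in the base, 0.270 ± 0.0257 in the control vault and 0.690 ± 0.394 in the MCAGF8 vault (SD, n = 3).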
